A study of Mus musculus with 67 samples.

Results

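The Hox cluster genes are the 38 rows of the expression table, of 29579 in all, whose symbol is Hox followed by a cluster letter (a, b, c or d) and a number. They fall into 11 members of the HoxA cluster on chromosome 6, 10 of HoxB on chromosome 11, 9 of HoxC on chromosome 15 and 8 of HoxD on chromosome 2. By paralog number, 11 are anterior (groups 1 to 4), 11 are central (groups 5 to 8) and 16 are posterior (groups 9 to 13). The question was whether VPA, EPZ6438 or both raised these genes in organoids and, separately, in crypts.

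RNA was sequenced from 49 mouse small intestinal organoid libraries in 10 conditions and from 18 crypt libraries in 9 groups. All organoid media held EGF, except one named below, and R-Spondin 1. ENR (n = 7) held EGF, Noggin and R-Spondin 1, and ENR +VE (n = 3) had VPA and EPZ6438 added, at doses not given in the sources used here. 8C (n = 7), the medium of the hyperplastic Hyper-organoids, held VPA at 500 µM, EPZ6438 at 2 µM, LDN193189 (a BMP receptor inhibitor, in place of Noggin), a GSK-3 inhibitor, Pexmetinib (a p38 and Tie2 kinase inhibitor), bFGF, EGF and medium conditioned with R-Spondin 1. 8C -V (n = 6) lacked VPA and so held EPZ6438 as its only epigenetic compound. 8C -E (n = 7) lacked EPZ6438 and held VPA. 8C -VE (n = 7) lacked both. 8C -GSK3i, 8C -Pex, 8C -bFGF and 8C -EGF (n = 3 each) lacked the GSK-3 inhibitor, Pexmetinib, bFGF or EGF and kept VPA and EPZ6438. The crypts came from normal mice (Normal, n = 2) and from mice 1, 2, 3 or 5 days after irradiation, without compounds (IR) or with VPA and EPZ6438 (VE), n = 2 in each group. The study gives mice as the unit of its crypt expression data and of part of its organoid data. The labels do not tie single libraries to animals or cultures, so the p-values measure the spread between these libraries, which may be partly technical.

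Hox genes encode homeodomain transcription factors that set position along the body axis. They lie in clusters, and their order along the chromosome matches the order in which they are used along the body, from the anterior genes at the 3′ end of a cluster to the posterior genes at the 5′ end. Silent Hox genes are textbook targets of Polycomb repressive complex 2 (PRC2), whose catalytic subunit EZH2 methylates histone H3 at lysine 27. EPZ6438 (tazemetostat) inhibits EZH2, and VPA (valproic acid) inhibits histone deacetylases. In the gut, Hox genes are used mostly in the mesenchyme, while the epithelium keeps a smaller set that depends on the position along the tract.

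The sequence before the start of 4 members is shown because they stand for the 4 patterns described here. Hoxa5 was called in every organoid comparison that added EPZ6438 to a medium. Hoxb4 was called only where the treated medium held both compounds, and was not tested with either alone. Hoxb8 rose with both compounds in ENR and varied between libraries in 8C media, and Hoxa13 stayed near 0. Each is the 250 bases upstream of the annotated start, read 5′ to 3′ on the strand of the gene, from RefSeq promoters on GRCm38.p6 (mm10), with every CG dinucleotide in capitals. The windows hold no annotated exon and lie at chr6:52204588-52204837 (minus strand) for Hoxa5, chr11:96318017-96318266 (plus strand) for Hoxb4, chr11:96281655-96281904 (plus strand) for Hoxb8 and chr6:52260881-52261130 (minus strand) for Hoxa13.
Hoxa5: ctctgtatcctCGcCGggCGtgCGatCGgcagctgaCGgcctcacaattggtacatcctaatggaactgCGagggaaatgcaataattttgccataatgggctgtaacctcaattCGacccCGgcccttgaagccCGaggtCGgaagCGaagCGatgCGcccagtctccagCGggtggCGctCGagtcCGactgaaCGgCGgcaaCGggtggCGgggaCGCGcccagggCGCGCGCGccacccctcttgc
Hoxb4: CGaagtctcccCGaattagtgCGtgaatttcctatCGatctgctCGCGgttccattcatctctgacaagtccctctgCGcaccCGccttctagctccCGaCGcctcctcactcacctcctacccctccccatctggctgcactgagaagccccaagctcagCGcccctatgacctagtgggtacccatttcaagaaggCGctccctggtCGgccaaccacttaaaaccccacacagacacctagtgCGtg
Hoxb8: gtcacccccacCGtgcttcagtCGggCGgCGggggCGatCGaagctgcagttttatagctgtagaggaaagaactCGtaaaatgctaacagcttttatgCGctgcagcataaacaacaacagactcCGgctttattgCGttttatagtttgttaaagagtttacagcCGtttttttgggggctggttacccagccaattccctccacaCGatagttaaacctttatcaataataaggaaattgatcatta
Hoxa13: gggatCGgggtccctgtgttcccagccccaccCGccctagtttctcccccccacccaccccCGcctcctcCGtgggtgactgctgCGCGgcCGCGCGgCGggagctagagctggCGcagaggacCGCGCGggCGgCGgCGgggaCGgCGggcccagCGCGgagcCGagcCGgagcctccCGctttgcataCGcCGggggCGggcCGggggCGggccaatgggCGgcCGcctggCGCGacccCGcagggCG

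A CG reads the same on both strands. Hoxa5 has 28 in its window, and 7.61% of 32851 promoter entries of that length have as many. Hoxb4 has 14 (29.4% of entries have as many), Hoxb8 has 12 (33.5%), and Hoxa13 has 35 (2.97%), against a median of 6 over all entries. Hoxb8 also has 2 copies of TATAAA, counted on both strands, which 2.10% of entries have, and the other 3 windows have none. Hoxa13, with the most CG of the 4, was listed at no more than 0.374 TPM in any organoid library. These are letters in a window and not sites of binding, and 21 of the 38 members had an entry in the promoter table.

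Values are TPM, a scale relative to the library total and to transcript length, on which genes can be compared within a library. In organoids, 20 of the 38 members reached 1 TPM in at least 1 library, and they were unevenly spread: 9 of 11 in HoxA, 9 of 10 in HoxB, 1 of 9 in HoxC (Hoxc12) and 1 of 8 in HoxD (Hoxd8). Hoxc5, Hoxc13 and Hoxd12 were listed at 0 in every organoid library. The other 15 lay between 0 and 0.834 TPM. The silent set was therefore mostly HoxC, HoxD and the posterior ends of HoxA, where Hoxa11 reached 0.604 TPM and Hoxa13 0.374 TPM.

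**Figure D1:**
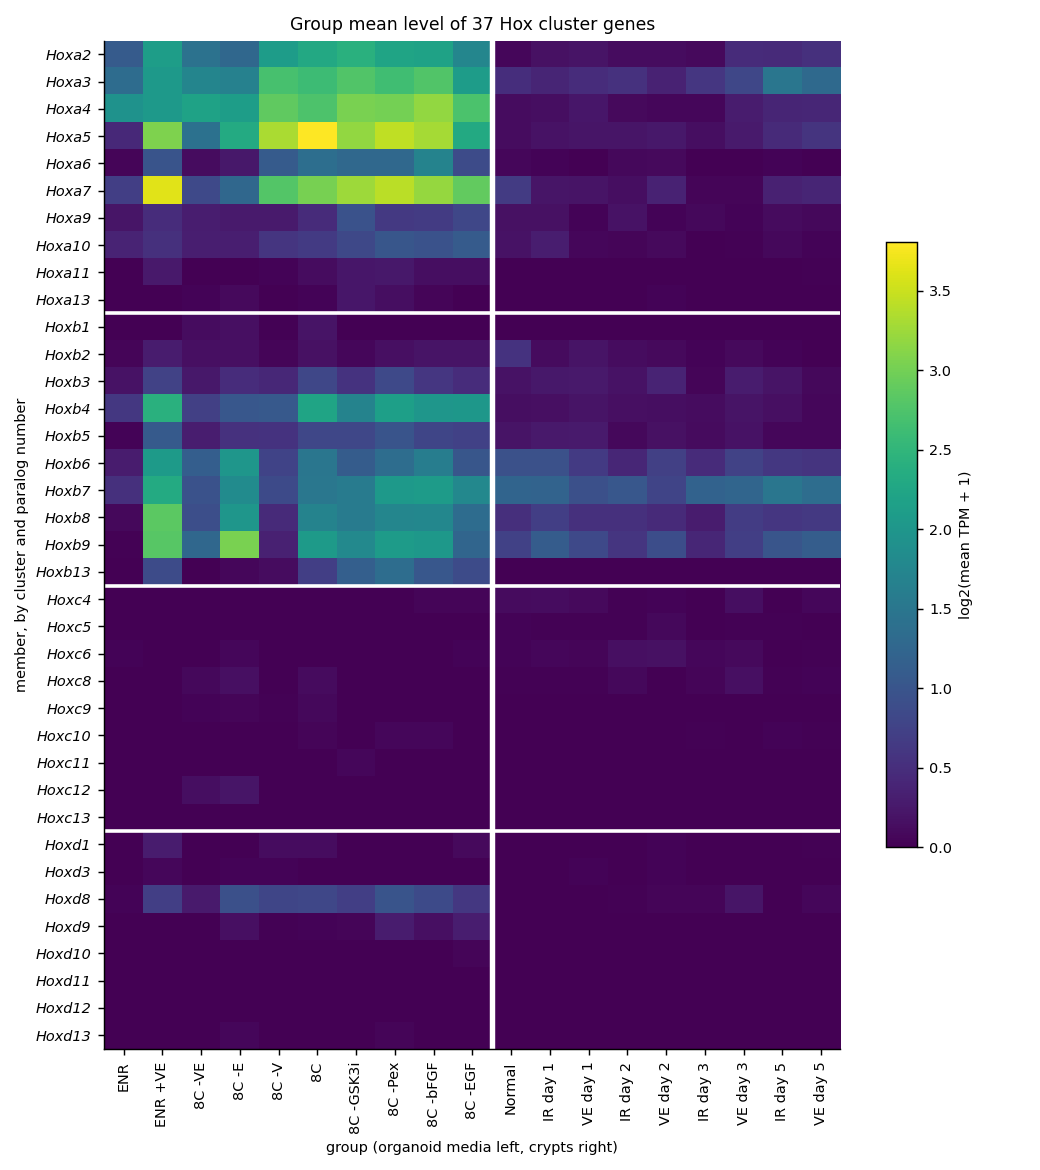
Group mean level of 37 Hox cluster genes (rows, by cluster and number) in each group (columns, organoid media left, crypts right), colored by log2(mean TPM + 1) with lighter colors for higher levels. The lighter cells are mostly in Hoxa2 to Hoxa5, Hoxa7, Hoxb4 and Hoxb6 to Hoxb9, nearly all of HoxC and, except for Hoxd8, HoxD is dark, and the means of Hoxb6 to Hoxb9 in 8C -E rest on replicate 7, with Hoxb9 at 44.7 TPM.

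The level of the whole family differed between media. Summed over the 38 members, ENR held 8.52 ± 2.76 TPM (SD, n = 7) and ENR +VE 58.9 ± 19.4 TPM (n = 3). The sum was 16.8 ± 15.6 TPM in 8C -VE (n = 7), 32.7 ± 39.4 in 8C -E (n = 7), 37.3 ± 4.40 in 8C -V (n = 6) and 54.5 ± 9.01 in 8C (n = 7). The large SDs of 8C -VE and 8C -E come from 1 library each, replicate 7, with 51.0 and 122 TPM. Medians were 10.7 TPM in 8C -VE and 19.1 TPM in 8C -E, below the lowest library of 8C -V (29.8 TPM). No ENR library (at most 11.8 TPM) reached the lowest ENR +VE library (36.8 TPM). The median number of members at 1 TPM or more was 3 in ENR, 4 in 8C -VE, 5 in 8C -E, 7.5 in 8C -V, 11 in 8C and 14 in ENR +VE. In bulk RNA, more cells with a transcript and more transcript per cell cannot be told apart.

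Without either compound, the members with the highest mean in 8C -VE were Hoxa4 (3.56 ± 1.96 TPM, n = 7), Hoxa3 (2.33 ± 0.789) and Hoxa2 (1.69 ± 0.642), all anterior HoxA genes, which in the embryo pattern the hindbrain and neck. Hoxa4 ran from 1.52 to 6.53 TPM with a median of 3.63, Hoxa3 from 1.58 to 3.85 with a median of 2.02, and Hoxa2 from 0.954 to 2.85 with a median of 1.57. The 3 ranges overlap, so their order is not fixed beyond the spread between libraries. About 16.0% of the exon bases of Hoxa4 and 25.4% of those of Hoxa3 are shared with genes on the other strand, and 15% of those of Hoxa2 with another gene on the same strand. The library kit is not stated to keep strand, so these reads cannot be split.

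Changes were tested with limma on the log2(TPM + 1) scale. A gene entered a test if its mean reached 1 TPM over the libraries of that comparison, and it was called if its p, adjusted by Benjamini-Hochberg over all genes tested, was under 0.05 and its change was at least 2-fold. Differences on this scale understate the change of low genes. A member off in a control group and on in a treated group passes the minimum only through the treated group, so the number that passed in this way is given for each comparison, and a median over the members tested only describes them.

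EPZ6438 alone raised Hoxa5 and Hoxa7, central HoxA genes. Of the 38 members, 5 passed the minimum, all in HoxA and 1 of them (Hoxa7) only through 8C -V, and 2 were called higher and none lower, where 2.96% of all genes tested were called higher. The median change over the 5 was 0.97 on the log2 scale, and over all genes -0.02.

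Hoxa5 (ENSMUSG00000038253.6, chr6:52201754-52204587, minus strand), a regulator of gut and lung development, ran in 8C -V from 4.57 to 11.9 TPM with a median of 9.78. In 8C -VE it ran from 0.996 to 4.04 with a median of 1.23. Every 8C -V library was above every 8C -VE library. The means were 9.02 ± 2.72 (n = 6) and 1.67 ± 1.09 TPM (n = 7), a log2 change of 1.93 ± 0.24 (SE, adjusted p = 1.4e-04). Hoxa7 (ENSMUSG00000038236.8, chr6:52214491-52221854, minus strand) ran from 3.49 to 9.93 TPM with a median of 5.66 in 8C -V and from 0 to 1.91 with a median of 0.522 in 8C -VE. These groups did not overlap either. Its log2 change was 2.00 ± 0.29 (adjusted p = 4.1e-04), and 20.4% of its exon bases are shared with the antisense gene Hoxaas3. The 3 anterior members tested, Hoxa2, Hoxa3 and Hoxa4, gave 0.65, 0.97 and 0.69 and were not called. Hoxa3 missed only the 2-fold minimum (adjusted p = 0.0023), and with the replicate number as a block it passed at 1.07 (adjusted p = 8.6e-05).

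VPA alone called no member. Of the 38, 9 passed the minimum, 3 of them only through 8C -E, and 0 were called by limma (1 at an unadjusted p under 0.05), where 3.11% of all genes were called higher. Their median change was 0.49, and that of all genes 0.03. The largest changes were in Hoxa5 and Hoxb9. Hoxa5 ran from 2.33 to 6.60 TPM with a median of 3.94 in 8C -E. Each of these libraries was above every 8C -VE library except replicate 7 (4.04 TPM), which overlapped them. Its log2 change was 0.94 ± 0.23 (adjusted p = 0.011), just under 2-fold, and it was called once the libraries numbered 7 were left out (5 members then tested, 1 called). Hoxb9, a posterior gene, ran from 0 to 44.7 TPM in 8C -E with a median of 0.333, and from 0 to 9.83 in 8C -VE, where 5 of 7 libraries were listed at 0. Its change was 0.94 ± 0.78 (adjusted p = 0.60), and the highest value in each group was replicate 7. Hoxa2, Hoxa3 and Hoxa4 gave -0.17, -0.04 and -0.04.

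Set directly against each other, EPZ6438 alone gave higher levels than VPA alone for 2 of the 10 members that passed the minimum, where 2.06% of all genes were called higher. Of the 10, 4 passed only through 1 group, the median was 0.46, and the median over all genes was -0.06. Hoxa3 was at 3.43 to 6.45 TPM in 8C -V and 1.77 to 2.76 TPM in 8C -E, a log2 difference of 1.01 ± 0.15 (adjusted p = 4.6e-04). It lies just past 2-fold, and the call was lost in 7 of 13 fits with a library left out (without 8C -V replicate 1, 2, 3 or 5 or 8C -E replicate 4, 6 or 7), over which it ranged from 0.97 to 1.12. The libraries numbered 4 to 6 gave 0 calls in this comparison. Hoxa7 was at 3.49 to 9.93 and 0.0741 to 2.36 TPM, a difference of 1.56 ± 0.30 (adjusted p = 0.0042). Neither pair of groups overlapped. Hoxa5 differed by 0.99 ± 0.22 (adjusted p = 0.011) and missed the 2-fold minimum. With the replicate number as a block, Hoxa5 was called (1.09, adjusted p = 6.5e-05) in place of Hoxa3. Members of HoxB went the other way or were near 0, from -1.11 for Hoxb9 to 0.18 for Hoxb4, and none was called. The HoxB values rest in part on 8C -E replicate 7, which has no partner in 8C -V. It held Hoxb6 at 16.8 TPM (at most 1.08 in the other 8C -E libraries), Hoxb8 at 18.8 (at most 1.05) and Hoxb9 at 44.7 (at most 2.98). This comparison was added after the data were seen.

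VPA and EPZ6438 together raised 3 members over 8C -VE: Hoxa5, Hoxa7 and Hoxb4. Of the 38 members, 10 passed the minimum. Of these, 4 did so only through 8C, with Hoxa7 and Hoxb4 among them, so of the 3 called members Hoxa5 alone also passed in 8C -VE. The 3 called higher compare with 9.06% of all genes called higher, and the median over the 10 was 0.86 against 0.01 for all genes.

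Hoxa5 ran from 7.22 to 20.1 TPM in 8C with a median of 12.6, clear of the 8C -VE range. The means were 13 ± 4.19 and 1.67 ± 1.09 TPM (n = 7 each), a log2 change of 2.41 ± 0.23 (adjusted p = 8.3e-07). Hoxa7 ran from 1.23 to 10.4 TPM with a median of 8.33. Its lowest 8C library, replicate 7, fell within the 8C -VE range, and the change was 2.17 ± 0.35 (adjusted p = 2.1e-04). Hoxb4 (ENSMUSG00000038692.8, chr11:96318267-96321638, plus strand), an anterior gene best known in blood stem cells, ran from 2.39 to 5.11 TPM in 8C with a median of 3.37. In 8C -VE it ran from 0.177 to 2.11 with a median of 0.501, so the groups did not overlap. The change was 1.54 ± 0.22 (adjusted p = 5.1e-05). Hoxa2 and Hoxa3 gave 0.86 each (adjusted p = 0.0039 for both) and missed the 2-fold minimum. The count depends on replicate 7 of 8C -VE: without it 6 members were called, the additional ones being Hoxb7, Hoxb8 and Hoxb9. The libraries numbered 1 to 3 gave 5 calls, and those numbered 4 to 6 gave 8. The share of all genes called was not kept for these other fits.

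**Figure D2:**
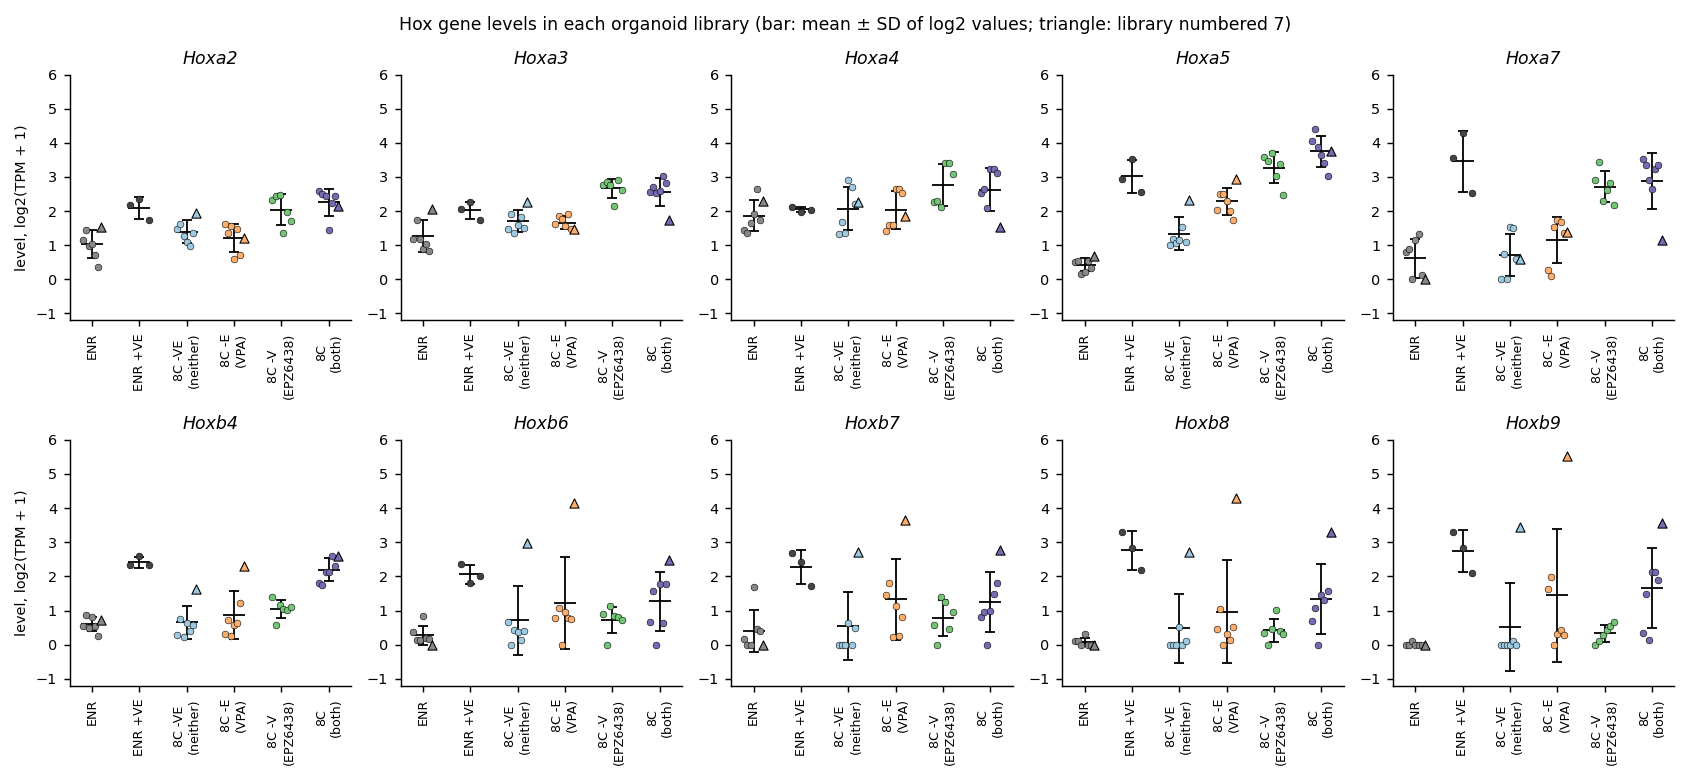
log2(TPM + 1) of the called and named Hox genes in each library of ENR, ENR +VE, 8C -VE, 8C -E, 8C -V and 8C, with each point a library, triangles for the libraries numbered 7, and bars for the mean ± SD of the log2 values. Hoxa5 rises from 0.113 to 0.604 TPM in ENR to 7.22 to 20.1 TPM in 8C, and single libraries numbered 7 stand high for Hoxb8 and Hoxb9 in 8C -VE and 8C -E.

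Comparisons with 8C as the treated group separate what each compound added to the other. They share the 8C libraries with the comparison above. EPZ6438 on top of VPA (8C against 8C -E) raised 4 of the 10 members that passed the minimum, where 3.97% of all genes were called higher. None of the 10 passed only through 1 group. The 8C -E means of Hoxb4, Hoxb6, Hoxb8 and Hoxb9 reached 1 TPM only with replicate 7, where Hoxb4 was at 3.91 TPM. The median over the 10 was 0.74, and over all genes -0.02. Hoxa7 changed by 1.72 ± 0.36 (adjusted p = 0.0055), Hoxa5 by 1.46 ± 0.22 (adjusted p = 2.5e-04), Hoxb4 by 1.33 ± 0.28 (adjusted p = 0.0056) and Hoxa2 by 1.04 ± 0.21 (adjusted p = 0.0049). The call of Hoxa2 was lost in 4 of 14 fits with a library left out (without 8C replicate 1 or 2 or 8C -E replicate 4 or 6), with a lowest change of 0.93. Of these, only Hoxa5 had groups that did not overlap, with 8C -E at 2.33 to 6.60 TPM and 8C at 7.22 to 20.1 TPM. More members were called in this comparison with the libraries numbered 4 to 6 alone, as given below.

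VPA on top of EPZ6438 (8C against 8C -V) raised Hoxb4 and no other of the 11 members that passed the minimum, 4 of them only through 8C, where 4.09% of all genes were called higher. Their median was 0.48, and that of all genes 0.05. Hoxb4 was at 0.484 to 1.62 TPM with a median of 1.10 in 8C -V, and every 8C library was above that range. Its change was 1.15 ± 0.19 (adjusted p = 6.9e-04). The call was lost under quantile normalization (0.91, adjusted p = 0.0051, under 2-fold) and with the libraries numbered 1 to 3 (0.87, adjusted p = 0.085). The HoxA members tested, Hoxa2 to Hoxa7, gave -0.14 to 0.48 and the HoxB members 0.49 to 1.33. Hoxb9, at 0 to 0.569 TPM in 8C -V and 0.0884 to 10.8 TPM in 8C, had the largest of these (1.33 ± 0.44, adjusted p = 0.061). With the replicate number as a block, which leaves replicate 7 of 8C with no partner, Hoxb9 was called at 1.01 (adjusted p = 0.030), so that 2 members were called.

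The interaction term, the change with EPZ6438 in the presence of VPA minus that in its absence, was called for 0 of 10 members by limma (1 at an unadjusted p under 0.05), where 0.653% of all genes were called. For this term a call needed an adjusted p under 0.05 and no minimum fold. The largest terms were 0.94 ± 0.37 for Hoxb4 (adjusted p = 0.74) and -0.47 ± 0.33 for Hoxa5 (adjusted p = 1). The pattern of Hoxb4, low with either compound and higher with both, was thus not separated from additive changes on the log2 scale after adjustment.

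**Figure D3:**
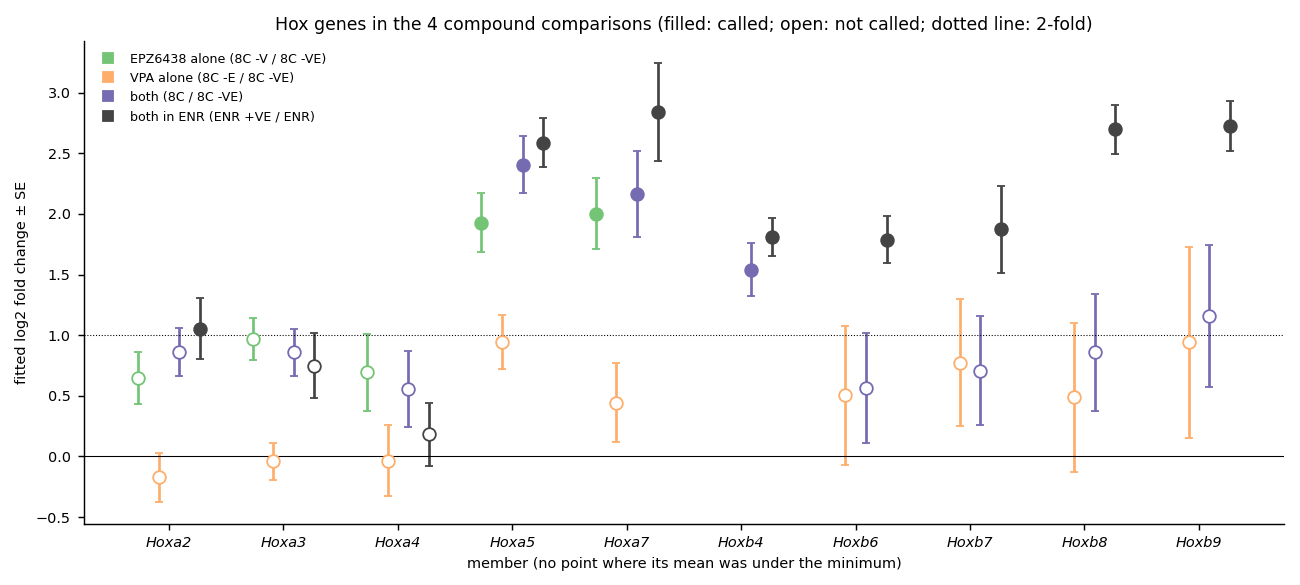
Log2 changes of each tested Hox gene with their SEs for EPZ6438 alone, VPA alone, both compounds in 8C medium and both in ENR, with filled points for called genes. Hoxa5 and Hoxa7 lie near 2 or above with EPZ6438, both compounds and ENR +VE, and Hoxb6 to Hoxb9 exceed 1.7 in ENR +VE with smaller, wider values in the 8C media.

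Added to ENR, VPA and EPZ6438 raised 8 members. Of the 38, 10 passed the minimum, and 8 were called higher and 0 lower, where 8.13% of all genes were called higher. The median over the 10 was 1.84, and over all genes 0.09. All called members but Hoxa2 (7 of the 10 tested) passed the minimum only through ENR +VE. This count was not tested against that in 8C media. Hoxa3 and Hoxa4, at 0.75 and 0.18, were not called.

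Hoxa7 was at 10.6, 18.7 and 4.79 TPM in ENR +VE and at 0 to 1.5 with a median of 0.756 in ENR, a log2 change of 2.84 ± 0.40 (adjusted p = 4.1e-04). Hoxb9 (ENSMUSG00000020875.9, chr11:96271457-96276595, plus strand) was at 8.82, 6.12 and 3.27 TPM in ENR +VE and listed at 0 in 6 of 7 ENR libraries, with 0.0821 TPM in the other. Its change was 2.72 ± 0.21 (adjusted p = 3.0e-06). In both genes every ENR +VE library was above every ENR library. Hoxb8 (ENSMUSG00000056648.5, chr11:96281905-96285315, plus strand) was at 8.92, 6.13 and 3.51 TPM in ENR +VE and at 0 to 0.240 TPM in ENR, a change of 2.7 ± 0.21 (adjusted p = 3.1e-06). Hoxa5 was at 6.73, 10.5 and 4.93 TPM in ENR +VE and at 0.113 to 0.604 with a median of 0.421 in ENR, a change of 2.59 ± 0.20 (adjusted p = 3.5e-06). The groups of these members did not overlap either, and the third ENR +VE library was the lowest for each of the 4. Of the others, Hoxb7 changed by 1.87, Hoxb4 by 1.81, Hoxb6 by 1.79 and Hoxa2 by 1.05. Hoxb4 stood at 4.00, 5.07 and 4.00 TPM, close to its range in 8C. Leaving out single libraries left 6 to 8 members called, with Hoxa5, Hoxa7, Hoxb4, Hoxb7, Hoxb8 and Hoxb9 called each time.

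Some members were below the minimum in ENR +VE against ENR. Hoxb5 was at 0.443 to 1.70 TPM in ENR +VE and listed at 0 in 6 of 7 ENR libraries. Hoxd8, the HoxD member with the highest level, was at 0.288 to 1.00 TPM in ENR +VE and at no more than 0.207 TPM in ENR. They carry no test there.

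The base medium alone called no member. In 8C -VE against ENR, 4 members passed the minimum, 1 of them only through 8C -VE, and 0 were called by limma (1 at an unadjusted p under 0.05), where 3.19% of all genes were called in either direction. Their median was 0.39, and that of all genes 0.08. The largest changes were 0.92 ± 0.20 for Hoxa5 (adjusted p = 0.0078), whose groups did not overlap but which missed the 2-fold minimum, and 0.43 ± 0.21 for Hoxa3 (adjusted p = 0.24). With the replicate number as a block, Hoxa5 gave 0.92 (adjusted p = 0.0036) and Hoxa3 0.43 (adjusted p = 0.042), both still under 2-fold. With base medium and compounds changed together, in 8C against ENR, 8 of 10 members tested were called higher, 7 of the 10 having passed only through 8C, where 11.9% of all genes were called higher. The median over the 10 was 1.28, and over all genes 0.08. Hoxa5 changed by 3.32 ± 0.19 (adjusted p = 9.1e-10), Hoxa7 by 2.27 and Hoxb9 by 1.65. Without replicate 7 of 8C, 6 members were tested and 5 called, since Hoxb6, Hoxb8 and Hoxb9 fell under the minimum of 1 TPM and were not tested. This comparison too was added after the data were seen.

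Neighbors Hoxb6 to Hoxb9 varied together between single libraries of a medium. These central and posterior HoxB genes are neighbors on chromosome 11 and are used in the embryonic trunk. Their summed level in the libraries numbered 7 was 27.9 TPM in 8C -VE, 91.8 TPM in 8C -E and 30.1 TPM in 8C, and each of the 4 was listed at 0 in ENR replicate 7. In 8C -E, Hoxb9 was at 44.7 TPM in replicate 7 and at no more than 2.98 TPM in the others, and Hoxb8 at 18.8 TPM against no more than 1.05 TPM. In 8C -VE, with neither compound, Hoxb9 was at 9.83 TPM in replicate 7 and at no more than 0.0822 TPM in the others. The same libraries held Hoxd8 at 1.45, 4.73 and 2.02 TPM, the highest of each group. They were also the only libraries of their groups with Hoxc8 above 0, at 0.383, 0.834 and 0.534 TPM. There is no 8C -V or ENR +VE library with this number, and the labels do not say what a number marks.

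Of the genes used to check the region of the gut, some differed in these libraries and others did not. Slc10a2, the ileal bile acid transporter, was at 3.00 to 7.54 TPM in the libraries numbered 7 of ENR, 8C -VE, 8C -E and 8C, and at no more than 1.09 TPM in the others of those groups. Pdx1, a proximal gene, was at 7.20 TPM in replicate 7 of 8C -VE and 8.87 TPM in that of 8C, below the others of those groups, but within their range in ENR and 8C -E. Gata4, also proximal, was at 136.7 TPM in that of 8C -VE and 161 TPM in that of 8C -E, below the others, and within their range in ENR and 8C. Onecut2 was below the others in 8C -VE alone (4.89 TPM). Fabp6, an ileal gene, was above the others in ENR (7.10 against at most 5.95 TPM) and within their range in 8C -VE, 8C -E and 8C. Car1, a colon gene, was at 8.48 TPM in that of 8C and listed at 0 in the other 3. Their part in the HoxB values was not tested. In ENR replicate 7, Slc10a2 was above the other ENR libraries while Hoxb6 to Hoxb9 were listed at 0.

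**Figure D4:**
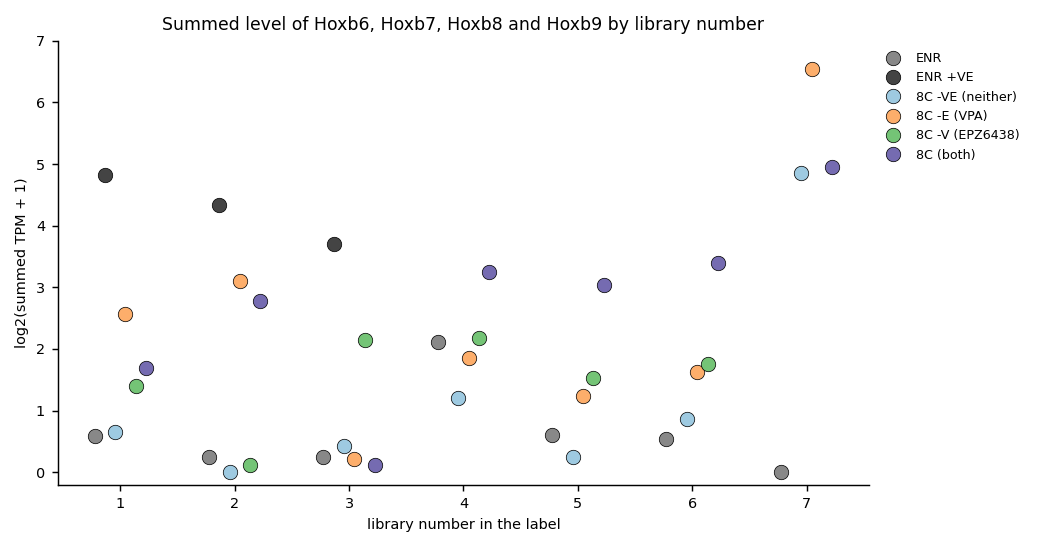
Summed level of Hoxb6 to Hoxb9, as log2(summed TPM + 1), against the replicate number of each library, with colors for ENR, ENR +VE, 8C -VE, 8C -E, 8C -V and 8C. The libraries numbered 7 of 8C -VE, 8C -E and 8C reach 27.9, 91.8 and 30.1 TPM, while ENR replicate 7 is at 0.

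Removing other components from 8C gave 1 call, Hoxa5 in 8C -EGF, in comparisons with n = 3 in which few genes of any kind were called. Each of these comparisons tested 11 members, and more calls came with the libraries numbered 1 to 3 alone, as given below. In 8C -GSK3i, 0 members were called and 0% of all genes (0 of 12806, with 836 at an unadjusted p under 0.05), and 2 members had an unadjusted p under 0.05, with changes of -0.58 for Hoxa5 and -0.50 for Hoxb4. In 8C -Pex, 0 members were called (0.482% of all genes, and 0 members at an unadjusted p under 0.05), with the largest changes in Hoxb7 (0.78) and Hoxa7 (0.52). In 8C -bFGF, 0 members were called (0.00779% of all genes, and 0 members at an unadjusted p under 0.05), with the largest in Hoxb7 (0.82) and Hoxa4 (0.55). The medians over the members were 0.15, 0.08 and 0.30, and over all genes -0.05, -0.06 and 0.00. With the replicate number as a block, Hoxb7 and Hoxb9 were called in 8C -Pex and in 8C -bFGF. The numbers do not pair the samples there, with a mean correlation between same-numbered libraries of -0.04 and -0.08.

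In 8C -EGF, 1 member was lower and 0 higher, where 0.179% of all genes were called lower, and 1 of the 11 passed the minimum only through 8C. Hoxa5 was at 4.07, 4.27 and 3.56 TPM, below the lowest 8C library (7.22 TPM). The means were 3.97 ± 0.367 (n = 3) and 13 ± 4.19 TPM (n = 7), a log2 change of -1.44 ± 0.25 (adjusted p = 0.028). The call was lost on leaving out replicate 1 or 3 of 8C or any one 8C -EGF library, while the change stayed between -1.33 and -1.55 over every library left out in turn. It was lost too under quantile normalization (-1.38, adjusted p = 0.056) and with no minimum mean. It was kept against 8C replicates 4 to 6 only (-1.06, adjusted p = 0.011). The median over the 11 members was -0.31, and over all genes 0.00. Cdx2, the ParaHox gene that specifies intestine, also fell, from 434 to 206 TPM (-1.05 ± 0.19, adjusted p = 0.029), the only ParaHox gene called in any organoid comparison.

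Markers of other cell types were followed beside these results. The 8 epithelial markers summed to 7436 to 13035 TPM over the organoid libraries. The 10 markers of fibroblasts and other mesenchyme, cells in which Hox genes are widely used, summed to 5.73 to 14.6 TPM in ENR, 19.1 to 20.3 in ENR +VE, 6.24 to 11.3 in 8C -VE, 4.23 to 8.04 in 8C -E, 11.9 to 23.5 in 8C -V, 18.9 to 28.3 in 8C and 58.5 to 142 in 8C -EGF. The sum thus moved with EPZ6438 as several Hox genes did, and was highest in 8C -EGF, where Hoxa5 was called lower. Most of it was Vim, with a median of 14.4 TPM over the organoid libraries against 16.3 TPM for the sum. The part of this sum in the result was not tested. Over the 49 organoid libraries, Vim was at 3.29 to 140.1 TPM, Col1a1 at 0 to 2.23 TPM, Pdgfrb at 0.166 to 1.72 TPM and Pdgfra at 0 to 0.998 TPM. The other 6 (Col1a2, Col3a1, Dcn, Thy1, Lum and Foxf1) did not exceed 0.489 TPM, and each was listed at 0 in 37 to 48 libraries. The 6 smooth muscle markers summed to 0 to 1.14 TPM in ENR and 1.42 to 1.95 TPM in ENR +VE, with medians of 0.366 TPM in 8C -VE, 0.655 in 8C -E, 0.642 in 8C -V and 2.47 in 8C, and their part in the result was not tested. Skeletal muscle markers summed to 44.6 to 397 TPM over the organoid libraries. Nearly all of this was Acta1 (23.6 to 369 TPM) and Mylpf (13.8 to 35.1 TPM), while Ckm, Myh1, Myh4 and Tnnt3 did not exceed 0.951 TPM. Markers of enteric neurons and glia summed to 1.97 to 9.89 TPM, those of endothelium to 0.304 to 1.96 TPM and those of immune cells to 1.23 to 16.3 TPM.

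Crypts held Hox RNA at a low level and showed no called change. The 18 libraries had a summed level of 3.02 to 9.72 TPM over the 38 members, 5 of which reached 1 TPM in a library (Hoxa3, Hoxa7, Hoxb6, Hoxb7 and Hoxb9) and 5 of which were listed at 0 in all 18. The organoid and crypt values were not compared by level, since their columns sum to different totals and the groups may have been quantified differently. Only Hoxb7 had a mean of 1 TPM or more over the crypt libraries, so 1 of 38 members could be tested. It was at 0.775 and 1.90 TPM in Normal, at 0.944 to 2.31 TPM in the 8 IR libraries and at 0.589 to 1.61 TPM in the 8 VE libraries, and these ranges overlap.

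With VPA and EPZ6438 in irradiated mice, Hoxb7 changed by -0.15 ± 0.14 over the mean of the 4 days (adjusted p = 0.38), where 3.55% of all genes were called in either direction. By day it was not called either: -0.28 on day 1 (0.00926% of all genes called), -0.25 on day 2 (8.38%), 0.06 on day 3 (31.7%) and -0.11 on day 5 (0.0185%). The medians over all genes were 0.27, 0.42, 0.69 and 0.03 on these days, so the level of most genes shifted on day 3 relative to Hoxb7. After irradiation without compounds, Hoxb7 gave 0.01, -0.15, 0.01 and 0.28 on days 1, 2, 3 and 5, not called on any day by limma (0 at an unadjusted p under 0.05), where 6.92%, 30.8%, 53.8% and 15.8% of all genes were called. The medians over all genes were -0.36, -0.61, -1.03 and 0.27. Under quantile normalization, which removes such shifts, Hoxb7 was called higher on day 3 after irradiation (1.13, adjusted p = 7.3e-04), and lay at -0.97 on day 3 with the compounds (adjusted p = 0.0068, just under 2-fold) and at -0.57 over the mean of the 4 days (adjusted p = 0.016). Immune markers summed to 124 to 195 TPM in Normal and 4.30 to 40.0 TPM in IR. On day 3 the fibroblast and other mesenchyme markers summed to 12.9 to 15.1 TPM in IR and 24.5 to 46.1 TPM in VE, those of smooth muscle to 0.615 to 0.646 and 1.49 to 2.44 TPM, and those of endothelium to 0.211 to 0.288 and 1.05 to 1.06 TPM. Their part in these results was not tested.

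The other members in crypts carry no test. Hoxa3, which had the highest single value of these, was at 0.619 and 0.199 TPM in Normal, 2.67 and 0.985 TPM in IR day 5 and 1.47 and 1.46 TPM in VE day 5. Hoxa5, which rose in organoids, was at 0.0716 to 0.119 TPM in Normal. On days 1 and 2 the groups overlapped, at 0.0860 to 0.194 in IR and 0 to 0.313 in VE on day 1 and at 0.151 to 0.171 and 0.166 to 0.200 on day 2. It was at 0.100 to 0.102 in IR day 3, 0.178 to 0.249 in VE day 3, 0.310 to 0.417 in IR day 5 and 0.367 to 0.611 in VE day 5. Hoxb4 did not exceed 0.236 TPM in any crypt library. Hoxb9 lay between 0.307 and 1.58 TPM.

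Non-coding genes lie inside the clusters, and 7 rows of the table were listed as such. Hotairm1, transcribed from the 3′ end of HoxA, was at 1.39 ± 0.989 TPM in 8C -VE and 10.3 ± 4.21 TPM in 8C (n = 7 each), a change of 2.21 ± 0.29 (adjusted p = 2.0e-05). It was called with EPZ6438 alone (1.09), with VPA alone (1.18) and in ENR +VE (2.07). Replicate 7 was the highest library in both 8C -E (13.8 TPM, the others at most 5.41) and 8C -VE (3.53 TPM). The call with VPA alone was not repeated without these libraries. Hoxaas3, antisense to Hoxa7 and sharing reads with it, rose with both compounds in 8C (1.65) and in ENR +VE (1.47). Hotair and Hottip, in HoxC and at the 5′ end of HoxA, were listed at 0 in all 67 libraries. In crypts, Hotairm1 was at 0.126 and 1.62 TPM in Normal, 6.97 and 7.06 TPM in IR day 3 and 11.5 and 15.4 TPM in VE day 3, a change with the compounds of 0.84 ± 0.56 that was not called (adjusted p = 0.23). On day 2 it was the lower in VE, at 0.200 and 0.415 TPM against 1.99 and 4.33 TPM in IR, and over the mean of the 4 days its change was 0.10 ± 0.28 (adjusted p = 0.78).

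Regulators of Hox chromatin were followed at the RNA level in organoids, beside 2.96%, 3.11%, 9.06% and 8.13% of all genes called higher for EPZ6438 alone, VPA alone, both in 8C and both in ENR. Of 12 PRC2 genes tested, 0 were called by limma for EPZ6438 alone, VPA alone or both in 8C media, and 1, Epop, was higher in ENR +VE (1.05, adjusted p = 8.8e-06). Ezh2 was at 47.1 TPM in 8C -V and 50.2 TPM in 8C -VE (-0.13, adjusted p = 0.87), and at 41.8 TPM in 8C (-0.28, adjusted p = 0.38). Of 16 PRC1 genes, which hold the second Polycomb complex, 1 rose with EPZ6438 alone: Bmi1, from 28.5 to 91.7 TPM (1.66 ± 0.15, adjusted p = 5.8e-06). It also rose with both compounds (1.05), and in ENR +VE, with Cbx2 and Phc1 (3 of 16). Of 9 genes of Trithorax complexes and H3K27 demethylases, which oppose Polycomb, 0 were called in any organoid comparison, the medians for EPZ6438 alone, VPA alone and both being -0.14, -0.04 and -0.26.

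Of 9 TALE homeodomain genes, whose products bind DNA with Hox proteins, 7 were tested. With EPZ6438 alone, VPA alone, both in 8C and both in ENR, 1, 1, 2 and 4 of the 7 were called higher, where 2.96%, 3.11%, 9.06% and 8.13% of all genes were. Meis3 was called with EPZ6438 alone (1.98), VPA alone (2.51) and both (3.04 ± 0.15, adjusted p = 4.9e-10, from 1.08 to 16.0 TPM). In ENR +VE the 4 were Meis2, Meis3, Pbx3 and Pbx4. Among 87 rows of other homeobox and T-box families, which are likewise known Polycomb targets, 11, 10, 13 and 9 passed the minimum for EPZ6438 alone, VPA alone, both in 8C and both in ENR. Of these 2, 2, 6 and 4 were called higher and 0 lower, with medians of 0.59, 0.30, 0.75 and 0.73 against -0.02, 0.03, 0.01 and 0.09 for all genes. Most of the 87 did not pass, so those tested are the ones present in some group. Msx3 was called in each of the 4 comparisons, at 1.53, 2.06, 3.29 and 3.22, and Tbx18 with EPZ6438 alone (2.44) and both in 8C (2.06). In crypts, 0 genes of the PRC2, PRC1, TALE and ParaHox lists and of the other homeobox and T-box families were called over the mean of the 4 days, and 1 of 8 in the Trithorax list, where 3.55% of all genes were called in either direction. On day 3, where 31.7% of all genes were called in either direction and their median was 0.69, 7 of 11 PRC2 genes, 5 of 14 PRC1 genes, 4 of 8 of the Trithorax list, 2 of 6 TALE genes, 0 of 3 ParaHox genes and 1 of 3 of the other families were called higher and none lower.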

How the data were processed

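Bulk RNA-seq of 49 organoid and 18 crypt libraries was analysed. The authors deposited a single table of TPM values for 29579 genes. According to the submitters' processing notes, reads were trimmed with Trimmomatic 0.39, mapped to mm10 with STAR 2.7.3a and counted with featureCounts. How TPM was computed from the counts, and the annotation used, are not given in the sources used here. TPM keeps no read number, so the depth is not known and no counting error can be given. Columns sum to 983801 to 988144 TPM in organoids and 819346 to 910935 TPM in crypts, and the sets were fitted apart. No column belonged to another series.

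Members were all rows matching the symbol rule. The members, gene lists and tests were chosen with earlier results of these data known. Values were taken as log2(TPM + 1) in R 4.3.3, and limma 3.58.1 (eBayes with trend and robust) was fitted to all genes at or above a mean of 1 TPM, with Benjamini-Hochberg adjustment over them. Each organoid fit held the groups compared, and crypts entered 1 fit of 9 groups. Values per library are given for members called, by size of change within each comparison (at most 8 for both compounds in 8C and 4 elsewhere), and the 2 largest changes where none was called. Gene positions and shared exons came from a GENCODE annotation of mm10, promoters from RefSeq. A member and a regional gene are counted in totals but not reported here by name. The fit was tested on simulated data.

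Libraries with the same replicate number were taken as paired where every pair correlated above 0.1 in its deviations from the group means. This held for EPZ6438 alone (mean r = 0.72), VPA alone (0.73), EPZ6438 against VPA (0.69), VPA on top of EPZ6438 (0.42) and base medium (0.46). Each result for the Hox members was repeated with a replicate block, with no minimum TPM or 5 TPM and with a pseudocount of 0.1. It was also repeated after quantile or 75th-percentile scaling, without a minimum fold, with plain eBayes and with 1 fit of all organoid groups. Further fits used libraries numbered 1 to 3 or 4 to 6, left out each library and, for crypts, left out mitochondrial genes. Non-coding rows and the lists of other genes were not repeated in this way. Added after seeing the data were EPZ6438 against VPA, 8C against ENR, leaving out the libraries numbered 7, and 8C replicates 4 to 6 against the omission groups.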

Additional observations from a re-analysis of the deposited data

Results flagged for a closer look

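Groups of 4 to 10 libraries were searched for a highest or lowest library far from the rest by Dixon's ratio, on log2(TPM + 1). Only members called in some comparison were searched, in groups where their mean was at least 1 TPM, which made 30 sets of values of 9 members. In 9 sets a library stood apart, and in 8 of the 9 it was numbered 7. Chance alone gives about 1 in 20, but this count cannot be set against it, since in Hoxb6 and Hoxb9 of 8C -VE and in Hoxb6, Hoxb8 and Hoxb9 of 8C -E the library itself brought the mean to 1 TPM. In 8C -VE, replicate 7 was the highest for Hoxa5 (4.04 TPM), Hoxb6 (6.81 TPM) and Hoxb9 (9.83 TPM). Hoxb7 and Hoxb8, each at 5.62 TPM there, were under the mean of 1 TPM in that group and were not searched. In 8C -E, replicate 7 was the highest for Hoxb6 (16.8 TPM), Hoxb8 (18.8 TPM) and Hoxb9 (44.7 TPM). In 8C, replicate 7 was the lowest for Hoxa3 (2.35 TPM) and Hoxa7 (1.23 TPM). The other was replicate 4 of 8C, the lowest for Hoxa2 (1.71 TPM).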

How the results depend on the processing

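Numbers here are Hox genes called. The share of all genes called was kept for the main fits only, so these counts cannot be set against it. A minimum mean of 5 TPM left 1 for EPZ6438 alone, 1 for both compounds in 8C, 1 for EPZ6438 on top of VPA, 0 for VPA on top of EPZ6438, 0 in ENR +VE, 0 for EPZ6438 against VPA and 1 for 8C against ENR, with 0 to 4 members tested. A pseudocount of 0.1 gave 1 for VPA alone, 5 for both and 1 for base medium. No minimum fold gave 1, 5 and 1 for these and 4 for EPZ6438 against VPA. Libraries numbered 1 to 3 gave 1 for VPA alone, 5 for both, 0 for VPA on top of EPZ6438, 5 for 8C against ENR and 4 over the 4 omitted components, and those numbered 4 to 6 gave 8 for both, 7 for EPZ6438 on top of VPA, 2 for VPA on top of EPZ6438 and 0 for EPZ6438 against VPA. Without the libraries numbered 7, VPA alone gave 1. Quantile normalization gave 0 for VPA on top of EPZ6438, 5 for 8C against ENR, 0 over the omitted components and 1 after irradiation, and no minimum mean gave 0 over the omitted components. Their causes were not tested.

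With the replicate block, VPA on top of EPZ6438 gave 2 and the omitted components 5 (Hoxb7 and Hoxb9 in 8C -Pex and 8C -bFGF, Hoxa5 in 8C -EGF), where the numbers do not pair the samples. EPZ6438 alone gave 3, both gave 4, EPZ6438 against VPA exchanged Hoxa3 for Hoxa5 among its 2 calls, and ENR +VE gave 7. It changed no other count of calls.

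Leaving out single libraries gave 2 to 3 for EPZ6438 alone, 0 to 1 for VPA alone, 3 to 6 for both, 3 to 5 for EPZ6438 on top of VPA, 1 to 2 for VPA on top of EPZ6438, 6 to 8 in ENR +VE, 1 to 3 for EPZ6438 against VPA, 5 to 9 for 8C against ENR, 0 to 1 over the omitted components, and 0 for base medium, interaction and crypts. The counts moved by over 1.5 times without 8C -E replicate 6 or 8C -VE replicate 7 (VPA alone, 1), 8C -VE replicate 7 (both, 6), 8C replicate 1 or 3 (VPA on top of EPZ6438, 2), 8C -V replicate 1, 2, 3 or 5 or 8C -E replicate 4 or 6 (EPZ6438 against VPA, 1), 8C replicate 7 (8C against ENR, 5), and 8C replicate 1 or 3 or any 8C -EGF library (omitted components, 0). A crypt library left alone in its group is assumed to vary like the other groups. None of the 36 changes followed over these fits (members called, and the largest where none was) reversed: of 480 such values 454 kept their side of the threshold, 24 lost and 2 gained a call, and of 378 under other settings 356, 16 and 6. In a further 9 and 31 fits a called member fell under the minimum and so lost its call. Outside these, Hoxb7 with the compounds on crypt day 3 went from 0.06 to -0.97 under quantile normalization. Depth, which TPM does not keep, limits members near 0, which no test reached.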

Other observations

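The posterior HoxB gene Hoxb13, which is used in the hindgut, and Hoxa10 were picked out after their values were seen, and carry no test. Hoxb13 was listed at 0 in 8C replicates 1 to 3 and 7 and was at 0.332 to 2.33 TPM in replicates 4 to 6. It was at 0 to 2.58 TPM with a median of 0.905 over the 12 libraries that lacked the GSK-3 inhibitor, Pexmetinib, bFGF or EGF, and at no more than 0.394 TPM in 8C -V replicates 1 to 6 and 0.112 TPM in those of 8C -E. In ENR and 8C -VE it was listed at 0 in every library, and in ENR +VE it was at 1.07, 1.34 and 0.0932 TPM in replicates 1 to 3.

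Hoxa10 was listed at 0 in 8C replicates 1 to 3 and 7 and was at 0.654 to 1.85 TPM in replicates 4 to 6. It was at 0.555 to 1.48 TPM over the same 12 libraries. In 8C -VE it was listed at 0 in replicates 1 to 3 and 7 and was at 0.131 to 0.796 TPM in replicates 4 to 6. The numbers do not order it in the ENR media, where it was at 0.544 TPM in ENR replicate 1 and at 1.09, 0.241 and 0 TPM in ENR +VE replicates 1 to 3. Hoxa4, which lies toward the 3′ end of HoxA, was at 3.28 to 5.23 TPM in 8C replicates 1 to 3 and 7.69 to 8.40 TPM in replicates 4 to 6, and at 1.52 to 2.21 and 3.63 to 6.53 TPM in those of 8C -VE. In replicate 7, Hoxa4 was at 1.90 TPM in 8C, below the other 8C libraries, and at 3.86 TPM in 8C -VE. The labels do not say what the replicate numbers mark, and their part in these values was not tested.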
